A study of Catostomus macrocheilus with 21 samples.

Results

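The 50 on-off probes described here are array probes whose signal in the livers of wild largescale suckers (Catostomus macrocheilus) fell into a high and a low set of fish with an empty stretch between them. They were selected on the measured values of the 21 fish. Only probes well above background on at least 6 of the 21 arrays were admitted. For each of them the 21 levels were sorted, and the largest gap that left at least 3 fish on each side was taken. Probes with an absolute Pearson r of 0.6 or more with LSS_UF_10838, itself a probe with a wide spread between fish, were left out (1523 probes), and the 50 probes with the largest gaps were kept. They are 50 of the 14758 non-control probes on the array and 50 of the 9433 that could have been chosen. Gap sizes and the split into high and low fish are therefore a description of the selection, and neither was tested.

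Each array measured the liver RNA of 1 fish. The fish were reproductive adults of wild origin from 3 places on the Columbia River, with 7 fish from Longview, 6 from Columbia City and 8 from Skamania, in a study of contaminant exposure. No fish was treated, and no site is labelled as unexposed. Fish are named by site and replicate number, so that Longview 5 is replicate 5 of Longview. The labels used here give no sex, size or contaminant level of a fish, so none could be set against the high and low states. The files pair each probe with the name of an assembled liver sequence, or contig, and not with a gene, so no role is given for any probe and the liver origin could not be checked against marker genes.

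The liver is the main organ of lipid and xenobiotic metabolism in fish, and in egg-laying females it also makes the yolk precursors. Suckers descend from an ancestor whose whole genome was duplicated, and many of their genes still exist as paired copies with similar sequence. A probe reads one short stretch of one contig. Differences in sequence between fish were not analysed here. In a whole-liver sample, fewer cells of a type and less RNA per cell cannot be told apart.

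Levels are log2 processed signals minus the 75th percentile of the array, so 0 is the level of a fairly bright probe. An array detected 8179 to 11806 probes well above background, and 11040 probes were detected so on at least 6 arrays. By median level the 50 probes were not dim as a set. Their median level was -1.27, against -1.47 over the probes tested, and the medians of single probes ran between -6.48 and 7.00. By detection they were dimmer, since 10 of the 50 were well above background on all 21 arrays, against 7072 of the 11040. The gap was 1.935 to 6.612 with a median of 2.597, whereas the median largest gap over the 9433 probes was 0.293. It took up 13.5% to 65.7% of a probe's range over the 21 fish, with a median of 32.3%. In most of the 50 the values within the high or the low set were thus also widely spread.

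The low state had different depths in different probes. Of the 1050 values, 584 lay above the gap and 466 below it. Nearly all high values, 583 of 584, were well above background, against 192 of the 466 low values. High and low are set by the same signals, and probes were admitted by detection on at least 6 arrays. Part of this contrast thus follows from the choice. In 17 probes no low fish was well above background, in 23 some were, and in 10 all were. For the 17 probes the depth of the low state was not measured, and a floored gap is given. It was computed between the dimmest high fish and the brightest low fish, each low fish being set at the higher of its own level and the lowest level that was well above background on its array. Floored gaps ran from 1.41-fold to 41.8-fold, with a median of 6.24-fold, and hold for this processing only. They are not lower bounds, because a probe could miss detection above the lowest detected level. LSS_UF_15696 in Longview 6, at -3.87, was not well above background, against a lowest detected level of -4.88 on that array. For LSS_UF_10864, LSS_UF_18014, LSS_UF_24086, LSS_UF_10494 and LSS_UF_22222 the floored gap equals the gap itself. In the 10 probes measured in every fish, among them LSS_UF_10089, LSS_UF_24449 and LSS_UF_23126, low means a lower measured level and not a signal at background.

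**Figure D1:**
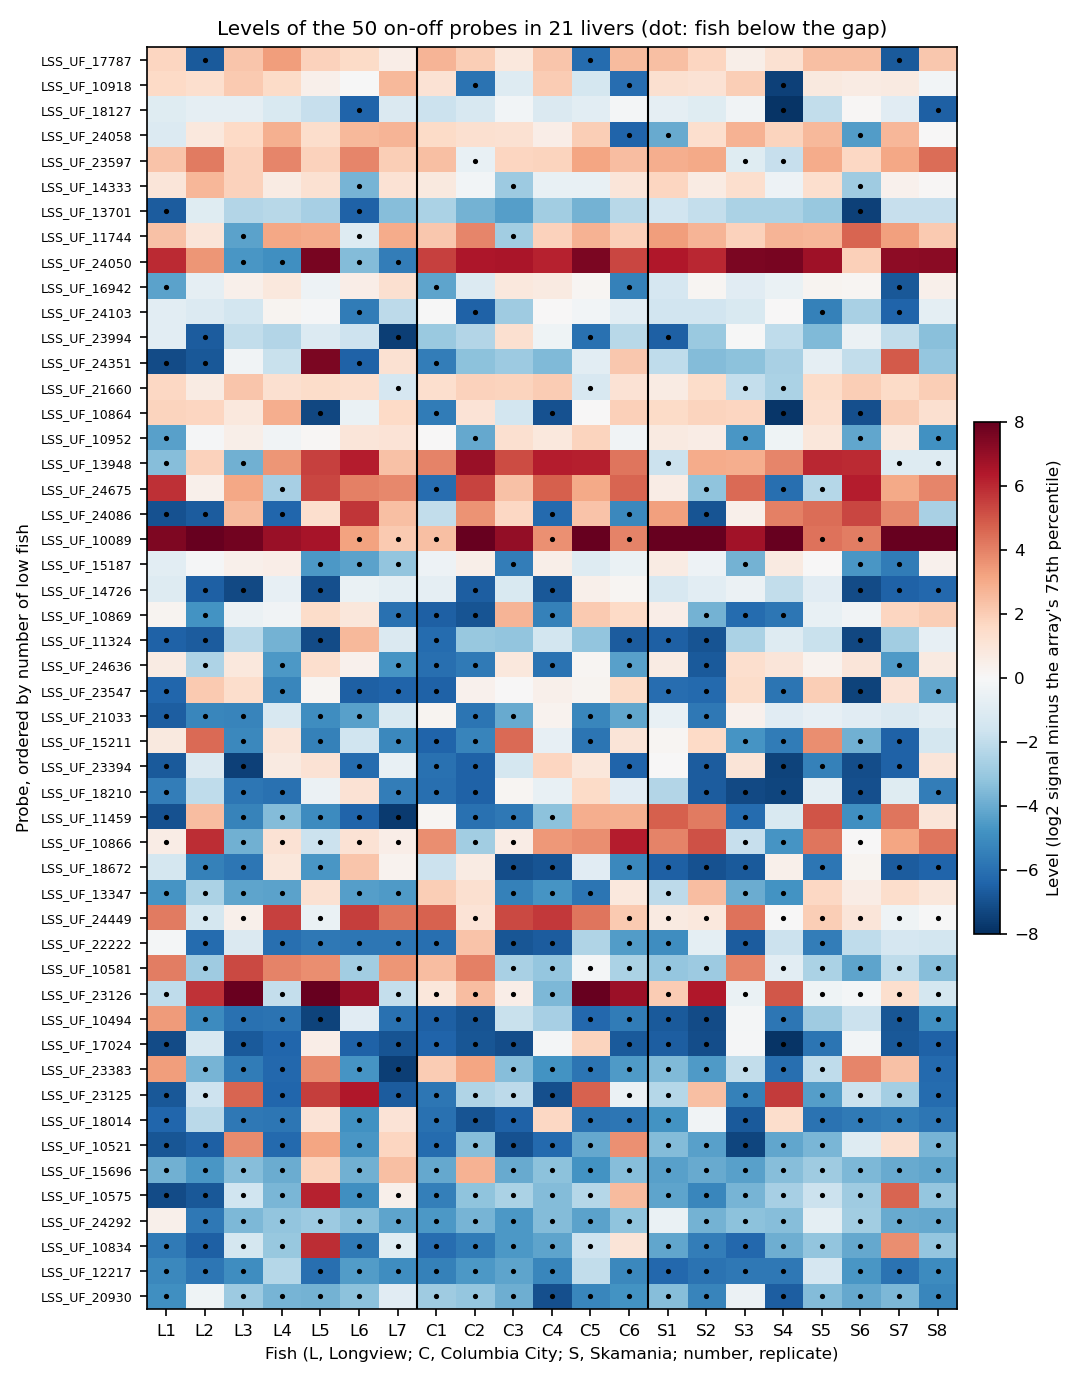
Level (colour, log2 signal minus the array's 75th percentile, colours saturating at -8 and 8) of each of the 50 probes (rows, from fewest to most low fish) in each of the 21 fish (columns, by site). Black dots mark the 466 values below a probe's largest gap. Dots are spread over all 3 sites in most rows, and both states occur at every site in 38 of the 50 probes.

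In 18 probes the low fish were the exception, with 3 to 5 low fish of 21. LSS_UF_17787 had the widest gap of the 50 on this scale, at 6.61. After normexp background correction its gap was 3.25, below those of LSS_UF_24050 (4.10) and LSS_UF_15696 (3.43). Its level was between 0.45 and 3.33 in 18 fish, with a median of 2.06, against -6.71 in Longview 2, -6.16 in Columbia City 5 and -6.74 in Skamania 7. None of these 3 fish was well above background, and the floored gap was 41.8-fold on the main scale. One low fish came from each site.

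LSS_UF_10918 was between -1.43 and 2.59 in 18 fish, with a median of 1.16, against -5.93 in Columbia City 2, -6.07 in Columbia City 6 and -7.46 in Skamania 4. No low fish was well above background, and the floored gap was 19.5-fold. LSS_UF_18127 was between -1.99 and 0.08 in 18 fish, with a median of -0.92. It stood at -6.42 in Longview 6, -7.87 in Skamania 4 and -6.52 in Skamania 8, with a floored gap of 7.40-fold. Skamania 4 was thus low for both probes, while the other low fish differed. LSS_UF_10864 was between -1.45 and 2.88 in 16 fish, with a median of 1.54, and it was not well above background in Longview 5, Columbia City 1, Columbia City 4, Skamania 4 or Skamania 6. Those 5 fish lay between -7.78 and -5.59, with a floored gap of 17.6-fold.

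LSS_UF_24050 differed from these in that its low fish were all from Longview. It stood at -4.68 in Longview 3, -4.91 in Longview 4, -3.47 in Longview 6 and -5.51 in Longview 7, and 3 of these 4 were well above background. The 17 high fish lay between 1.90 and 7.62 with a median of 6.48, which makes it one of the brightest of the 50 probes. Its gap was 5.37. The lowest of the high fish was Skamania 6 at 1.90, and the other 7 Skamania fish ranged from 6.01 to 7.62.

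The remaining 13 probes with few low fish had gaps between 1.95 and 3.72. The fish below the gap were Columbia City 6, Skamania 1 and Skamania 6 for LSS_UF_24058, and Columbia City 2, Skamania 3 and Skamania 4 for LSS_UF_23597. They were Longview 6, Columbia City 3 and Skamania 6 for LSS_UF_14333, and Longview 1, Longview 6 and Skamania 6 for LSS_UF_13701. They were Longview 3, Longview 6 and Columbia City 3 for LSS_UF_11744. Longview 6 and Skamania 6 were each low in 3 of these 5 probes, and the sets otherwise overlapped in part.

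Of the probes with 4 low fish, LSS_UF_16942 was low in Longview 1, Columbia City 1, Columbia City 6 and Skamania 7. LSS_UF_24103 was low in Longview 6, Columbia City 2, Skamania 5 and Skamania 7, and LSS_UF_23994 in Longview 2, Longview 7, Columbia City 5 and Skamania 1. LSS_UF_24351 was low in Longview 1, Longview 2, Longview 6 and Columbia City 1, and LSS_UF_21660 in Longview 7, Columbia City 5, Skamania 3 and Skamania 4. Except for LSS_UF_24351, each of these sets held fish of all 3 sites.

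Of those with 5 low fish, LSS_UF_10952 was between -0.37 and 1.77 in the high fish and between -4.82 and -4.08 in Longview 1, Columbia City 2, Skamania 3, Skamania 6 and Skamania 8. LSS_UF_13948 was low in Longview 1, Longview 3, Skamania 1, Skamania 7 and Skamania 8, all of them well above background, at -3.83 to -1.03 against 1.81 to 6.88 in the high fish. LSS_UF_24675 was low in Longview 4, Columbia City 1, Skamania 2, Skamania 4 and Skamania 5. The depth of the low state differed among these 3 probes, and no fish was low for all of them.

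**Figure D2:**
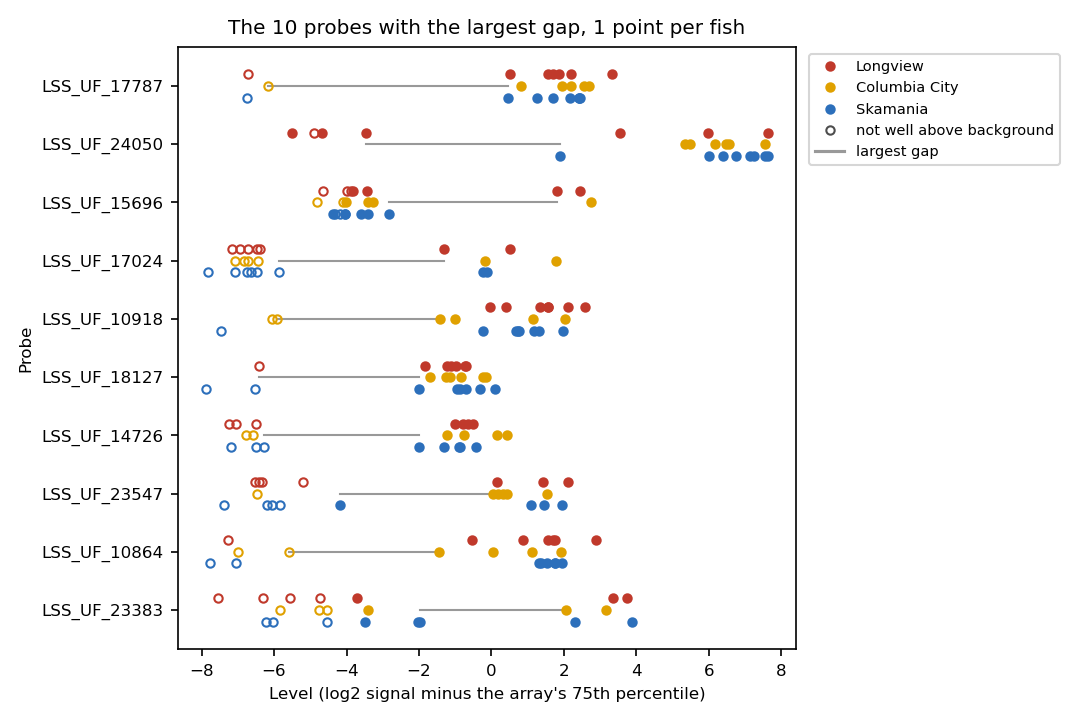
Levels (log2 signal minus the array's 75th percentile) of the 10 probes with the largest gaps in the 21 fish, 1 point per fish, coloured by site, with the largest gap as a grey line and open points for values not well above background. In these values the gap is widest for LSS_UF_17787, with 1 low fish per site, and the low fish of LSS_UF_24050 are 4 Longview fish.

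In 11 probes the high fish were the exception, with 3 to 6 high fish of 21. LSS_UF_15696 was at 1.81 in Longview 5, 2.43 in Longview 7 and 2.76 in Columbia City 2, against -4.80 to -2.82 in the other 18 fish, with a median of -4.01. All 8 Skamania fish were low, and 11 of the 18 low fish were still well above background. LSS_UF_17024 was at -1.30 in Longview 2, 0.52 in Longview 5, -0.18 in Columbia City 4, 1.78 in Columbia City 5, -0.12 in Skamania 3 and -0.24 in Skamania 6. In the other 15 fish it was not well above background, at -7.82 to -5.87, with a floored gap of 11.96-fold.

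LSS_UF_23383 was at 3.36 in Longview 1, 3.75 in Longview 5, 2.05 in Columbia City 1, 3.15 in Columbia City 2, 3.88 in Skamania 6 and 2.31 in Skamania 7, against -7.56 to -1.97 in the other 15 fish, with a median of -4.73. Its low fish were not uniform, since 5 of the 15 were well above background. LSS_UF_18014 was high in Longview 2, Longview 5, Longview 7, Columbia City 4, Skamania 2 and Skamania 4, at -2.15 to 1.63, against -6.89 to -4.80 in the low fish. LSS_UF_24292 was high in Longview 1, Skamania 1 and Skamania 5, and LSS_UF_20930 in Longview 2, Longview 7 and Skamania 3, so that all Columbia City fish were low for both. LSS_UF_12217 was high in Longview 4 at -2.29, Columbia City 5 at -1.96 and Skamania 5 at -1.34, against -6.26 to -4.24 in the other 18 fish. The other 4 probes of this kind, LSS_UF_10575, LSS_UF_10834, LSS_UF_10521 and LSS_UF_23125, shared their pattern with further probes and are described with those.

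In the other 21 probes the fish were more evenly divided, with 6 to 14 low fish. LSS_UF_14726 was between -1.99 and 0.43 in 13 fish, with a median of -0.79. It was not well above background in the other 8, which lay between -7.24 and -6.27 (floored gap 7.71-fold). Its low fish were Longview 2, 3 and 5, Columbia City 2 and 4, and Skamania 6, 7 and 8. LSS_UF_23547 was between 0.05 and 2.1 in 11 fish, with a median of 1.09, against -7.38 to -4.19 in the other 10. Its low fish were Longview 1, 4, 6 and 7, Columbia City 1, and Skamania 1, 2, 4, 6 and 8. LSS_UF_23394 was between -1.42 and 1.74 in 10 fish and was not well above background in the other 11, at -7.46 to -5.43 (floored gap 11.003-fold). Its high fish were Longview 2, 4, 5 and 7, Columbia City 3, 4 and 5, and Skamania 1, 3 and 8. In each of these 3 probes both states occurred at every site.

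LSS_UF_10089 had the highest median level of the 50, at 7.00. It was between 6.62 and 9.22 in 14 fish, with a gap of 2.27 above Longview 6 and 7, Columbia City 1, 4 and 6, and Skamania 5 and 6, which lay between 2.11 and 4.36. All 21 fish were well above background, so that the low fish still carried a bright signal. LSS_UF_24449 was likewise measured in every fish, at 4.17 to 5.63 in 9 fish and -1.41 to 2.12 in the other 12. Its high fish were Longview 1, 4, 6 and 7, Columbia City 1, 3, 4 and 5, and Skamania 3.

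LSS_UF_10581 was between 2.48 and 5.25 in Longview 1, 3, 4, 5 and 7, Columbia City 1 and 2, and Skamania 3, against -4.20 to -0.13 in the other 13 fish, all well above background. LSS_UF_21033 was at -1.30 to 0.32 in 2 of 7 Longview, 2 of 6 Columbia City and 7 of 8 Skamania fish, against -6.59 to -4.00 in the rest. LSS_UF_13347 was high, at 0.58 to 2.48, in Longview 5, Columbia City 1, 2 and 6, and Skamania 2, 5, 6, 7 and 8, against -5.81 to -2.13 in the other 12 fish. The other middle probes had gaps between 1.96 and 3.21. They were LSS_UF_24086, LSS_UF_15187, LSS_UF_10869, LSS_UF_11324, LSS_UF_24636, LSS_UF_15211, LSS_UF_18210, LSS_UF_11459, LSS_UF_10866, LSS_UF_18672, LSS_UF_22222, LSS_UF_23126 and LSS_UF_10494.

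No fish was low throughout, and none was high throughout. The number of the 50 probes for which a fish was low ran from 15 in Longview 5, 16 in Columbia City 5 and 18 in Skamania 5 to 26 in Skamania 6 and 27 in Longview 6. The sites differed in this number by less than the SD between fish of a site. A fish was low for 22.4 ± 3.64 probes at Longview (SD, n = 7), 21.8 ± 3.31 at Columbia City (n = 6) and 22.3 ± 2.43 at Skamania (n = 8). Low values made up 44.9%, 43.7% and 44.5% of the values of these sites. By slide, each holding arrays of all 3 sites, the mean was 20.7 ± 4.18 on slide 1 (SD, n = 6), 23.0 ± 2.78 on slide 2 (n = 8) and 22.6 ± 1.62 on slide 3 (n = 7).

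With rare high states taken as 3 to 6 high fish, Longview 5 had the highest count of them. It was high in 8 of the 11 such probes, and the next highest count was 4, in Longview 7 and Skamania 7. Of the 8, LSS_UF_10575, LSS_UF_10834 and LSS_UF_10521 are correlated with each other (r between 0.795 and 0.952). Of the 6 probes with 3 high fish, Longview 5 was high in LSS_UF_15696, LSS_UF_10575 and LSS_UF_10834 only. The rest of its 8 had 6 high fish, above the limit of 5 used for rare low fish. The count of 8 thus depends on that limit. Among the 18 probes with 3 to 5 low fish, Longview 6 was low in 7 and Skamania 4 in 6, and every fish was low in at least 1. Of the 50 probes, 3 had every Longview fish high, 4 every Columbia City fish and 3 every Skamania fish. Every Columbia City fish was low in 2 and every Skamania fish in 1, and no probe had every Longview fish low.

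The 50 probes did not share one pattern. Over the 1225 pairs, the Pearson r across the 21 fish had a median of 0.01 and ran from -0.671 to 0.968. These correlations describe levels from the same 21 arrays. Only 14 pairs reached an absolute r of 0.6, 11 of them positive, and 33 of the 50 probes were in no such pair. The 50 probes had 49 different sets of low fish. One pair shared its set in full, LSS_UF_10575 and LSS_UF_10834, and no pair was split in exactly opposite ways. A further 5 pairs differed in the state of 1 or 2 fish, LSS_UF_10918 with LSS_UF_23597, LSS_UF_11459 with LSS_UF_10866, LSS_UF_14333 with LSS_UF_11744 and with LSS_UF_13701, and LSS_UF_23125 with LSS_UF_23126. Nearly equal sets did not always mean close levels, since r was 0.14 for LSS_UF_14333 with LSS_UF_11744 and 0.47 for LSS_UF_10918 with LSS_UF_23597.

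**Figure D3:**
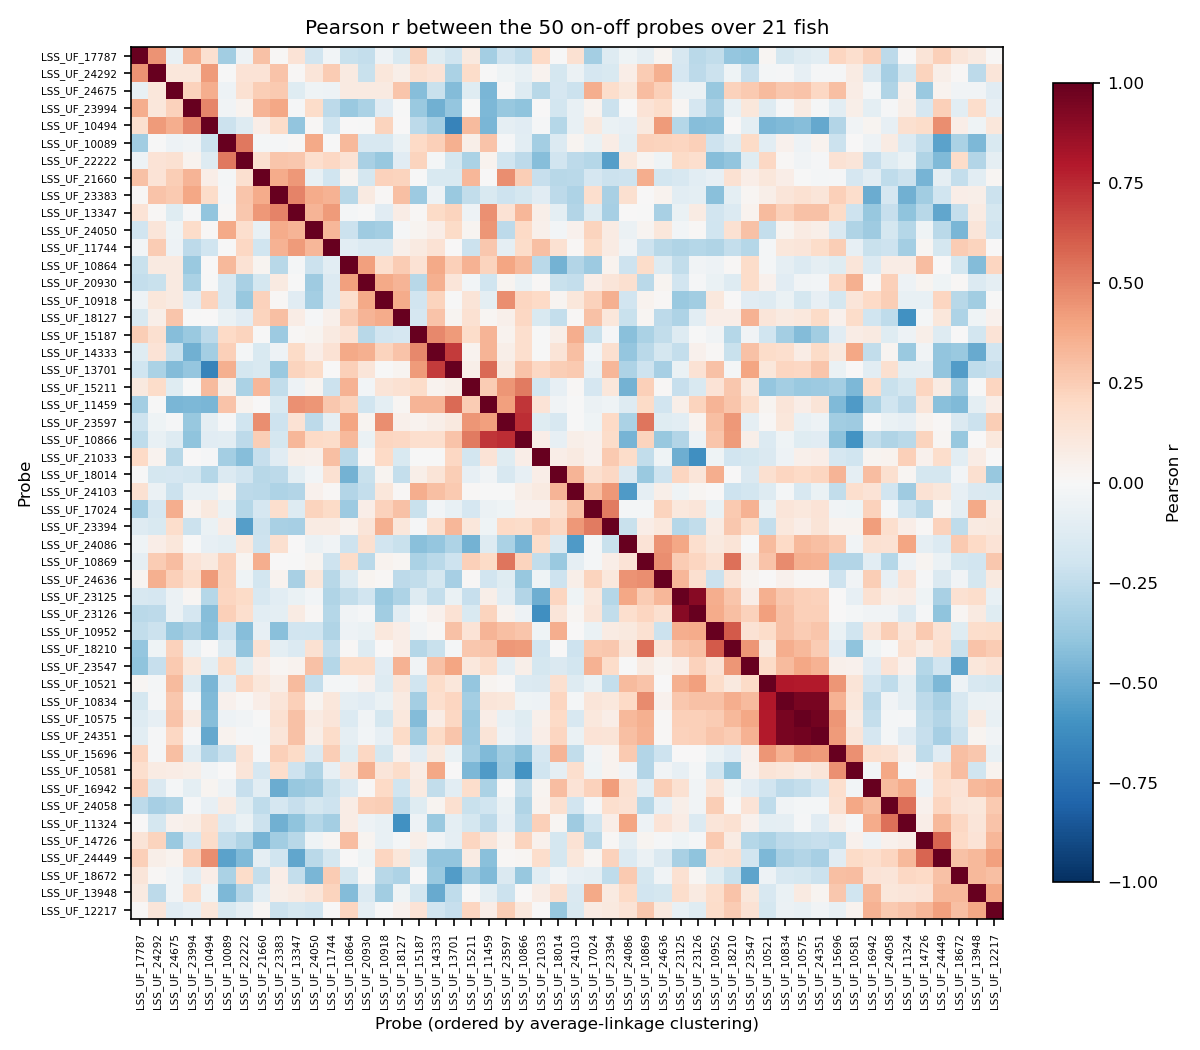
Pearson r (colour, blue negative, red positive) across the 21 fish for each pair of the 50 probes, rows and columns in the same order from average-linkage clustering. One block of 4 probes stands out (LSS_UF_10521, LSS_UF_10834, LSS_UF_10575 and LSS_UF_24351, r between 0.795 and 0.968), and most other pairs lie near 0.

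The closest group had its highest levels in 3 fish, 1 from each site. LSS_UF_10575 stood at 6.14 in Longview 5, 2.52 in Columbia City 6 and 4.64 in Skamania 7, against -7.13 to 0.41 in the other 18 fish. LSS_UF_10834 stood at 5.90, 1.02 and 3.70 in the same fish, against -6.54 to -0.97 in the others. Their r was 0.952. LSS_UF_24351 stood at 7.53, 2.18 and 4.92 in these fish, against -7.17 to 1.22 in the others, and had an r of 0.968 with LSS_UF_10575 and 0.950 with LSS_UF_10834. Its own largest gap lay further down, below which were Longview 1, Longview 2, Longview 6 and Columbia City 1, so the gap rule gave it another split. The levels of these probes thus spread over a wide range of which the top was the 3 fish.

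LSS_UF_10521 had part of this pattern. It stood at 3.75 in Longview 3, 3.15 in Longview 5, 1.72 in Longview 7, 3.64 in Columbia City 6, -1.0 in Skamania 6 and 1.29 in Skamania 7, against -7.32 to -3.41 in the other 15 fish. The 3 fish above were among its 6 high fish, and its r with the 3 probes was 0.795 to 0.801.

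Probes outside the 50 followed LSS_UF_10575 and LSS_UF_10834 as well. Over the 10956 probes with a value in every fish, 11 probes beside the 3 reached an r of 0.9 with either, among them LSS_UF_10728, LSS_UF_10729 and LSS_UF_12970. In 13 of these 14 probes Longview 5, Columbia City 6 and Skamania 7 held the 3 highest levels, the exception being LSS_UF_11128. The r between pairs of the 14 ran from 0.795 to 0.997 with a median of 0.946. Because the 14 were picked by their r with LSS_UF_10575 or LSS_UF_10834, both highest in these 3 fish, that ranking and these r follow from the choice. The mean level of the 14 probes was 7.57 in Longview 5, 3.59 in Columbia City 6 and 6.05 in Skamania 7. The next fish were Longview 7 at 2.30 and Longview 3 at 1.19, and the lowest was Longview 1 at -4.12. The fish thus formed a graded series with these 3 at its top. The r of the 14 probes with LSS_UF_10838 was between -0.057 and 0.157. Their contig names give no gene, and 8 of the 14 have a probe number within 2 of another of the 14. Whether some of them read the same transcript was not tested.

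**Figure D4:**
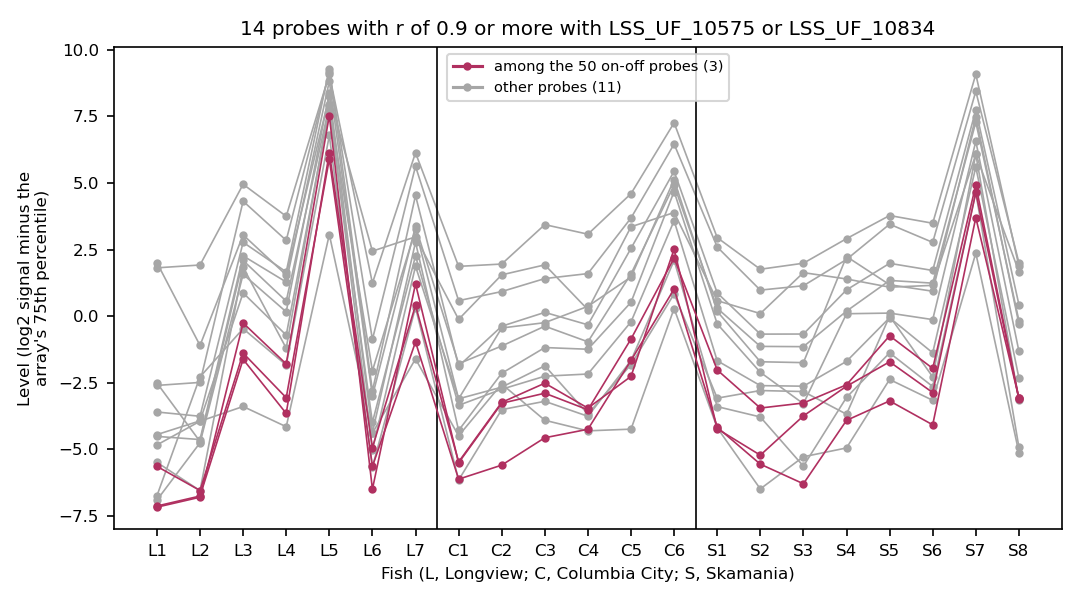
Levels (log2 signal minus the array's 75th percentile) in the 21 fish of the 14 probes with an r of 0.9 or more with LSS_UF_10575 or LSS_UF_10834, these included, 1 line per probe, with the 3 on-off probes in red and the other 11 in grey. Peaks stand at Longview 5, Columbia City 6 and Skamania 7 in nearly all lines, with intermediate levels in Longview 3 and Longview 7.

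A second close pair came from one contig group. LSS_UF_23125 and LSS_UF_23126 are the probes of 2 contigs of the same assembly group and had an r of 0.908. LSS_UF_23125 stood at 4.67 in Longview 3, 5.53 in Longview 5, 6.41 in Longview 6, 4.69 in Columbia City 5, 2.40 in Skamania 2 and 5.62 in Skamania 4, against -7.02 to -0.44 in the other 15 fish. LSS_UF_23126 was at 4.99 to 8.27 in the same 6 fish and in Longview 2 (5.78) and Columbia City 6 (6.82), against -3.58 to 2.48 in the other 13. In these 2 fish LSS_UF_23125 was at -1.64 and -0.44, at the top of its low set. All 13 low fish of LSS_UF_23126 were well above background, against 7 of the 15 of LSS_UF_23125. Probes of one contig group did not always move together. LSS_UF_24103 and LSS_UF_24104 had an r of 0.335, and LSS_UF_10866 and LSS_UF_10871 one of 0.033. Of the 50 probes, 6 had another probe of their contig group on the array.

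Of the pairs formed by an on-off probe and a probe of the next number, 4 reached an r of 0.9. They were LSS_UF_23125 with LSS_UF_23126, LSS_UF_10834 with LSS_UF_10833 (0.947), which is one of the 14 probes above, and 2 further pairs, all singled out after their values were seen. LSS_UF_22222 was between -2.40 and 2.27 in Longview 1 and 3, Columbia City 2 and 5, and Skamania 2, 4, 6, 7 and 8. It was not well above background in the other 12 fish, at -6.82 to -4.45 (floored gap 4.13-fold). LSS_UF_22221, which is not among the 50, was at -2.64 to 1.43 in the same 9 fish and at -5.12 to -3.42 in the other 12, with an r of 0.956, so both probes split the fish alike. LSS_UF_18672 was high, at -1.71 to 2.21, in Longview 1, 4, 6 and 7, Columbia City 1, 2 and 5, and Skamania 4 and 6, against -7.06 to -4.66 in the other 12 fish. LSS_UF_18671 followed it with an r of 0.912, at -6.45 to -1.32 against -7.63 to -5.34, although it was well above background on only 7 arrays and its ranges overlapped.

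Neighbouring numbers were not alike in general. Over the 76 pairs of an on-off probe with a probe of the next lower or higher number the median r was 0.088, against 0.085 over all 8352 such pairs. An r of 0.9 was reached by 5.26% of the 76 pairs and by 1.46% of all pairs.

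**Figure D5:**
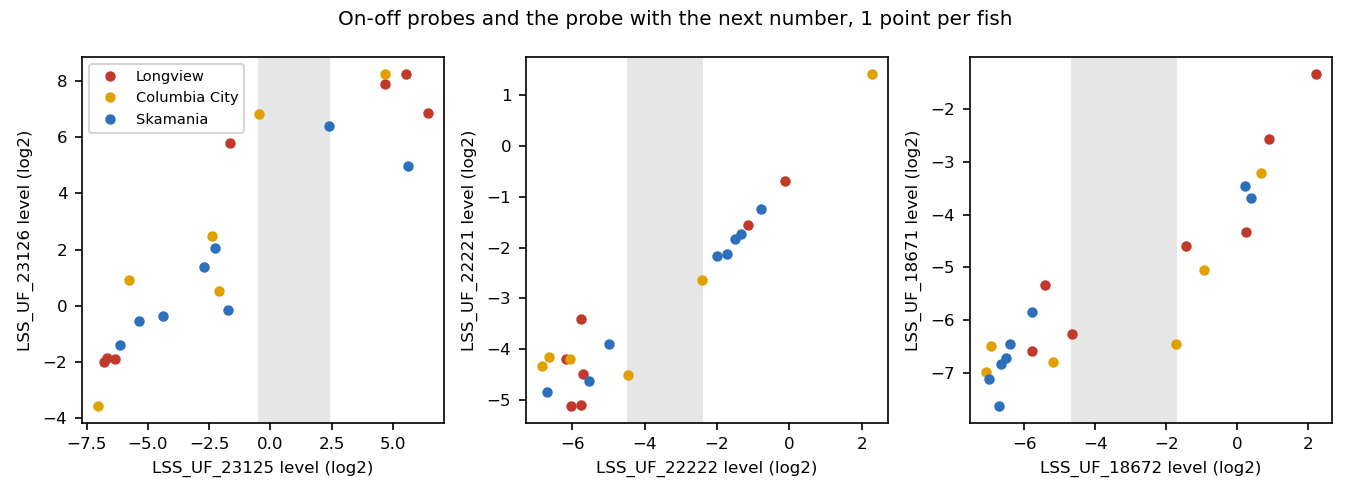
Level of an on-off probe (horizontal axis) and of the probe with the next number (vertical axis), both log2 signal minus the array's 75th percentile, in the 21 fish, coloured by site, for LSS_UF_23125 with LSS_UF_23126, LSS_UF_22222 with LSS_UF_22221 and LSS_UF_18672 with LSS_UF_18671. Grey bands are the largest gap of the probe on the horizontal axis, and fish left and right of the band keep apart on the vertical axis for LSS_UF_22221.

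Looser relations joined a few other probes. LSS_UF_10866 had an r of 0.736 with LSS_UF_23597 and 0.714 with LSS_UF_11459, and its state differed from that of LSS_UF_11459 in 2 fish. LSS_UF_10866 and LSS_UF_11459 were both high in Longview 2, Columbia City 1, 5 and 6, and Skamania 1, 2, 5, 7 and 8. In these fish LSS_UF_10838 was at 7.39 to 8.37, except in Columbia City 5 (-3.46), and it was at most 6.54 in all other fish. Between LSS_UF_14333 and LSS_UF_13701 r was 0.698, and Longview 6 and Skamania 6 were low for both. All of these probes also had a sizeable r with LSS_UF_10838, near the limit of 0.6 in most. It was 0.547 for LSS_UF_10866, 0.586 for LSS_UF_23597 and 0.585 for LSS_UF_11459. For LSS_UF_14333 it was 0.593 and for LSS_UF_13701 0.492. Whether these relations are separate from that with LSS_UF_10838 was not tested. Between LSS_UF_10952 and LSS_UF_18210 r was 0.610. The 3 opposed pairs were LSS_UF_13701 with LSS_UF_10494 (r = -0.671), LSS_UF_21033 with LSS_UF_23126 (r = -0.611) and LSS_UF_18127 with LSS_UF_11324 (r = -0.603).

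Compared with other probes, the 50 had fewer moderate partners. A partner with an r of 0.8 or more was found for 19 of the 50 (38%), against 62.6% of the 10956 probes, and one with an r of 0.9 or more for 10 (20%), against 15.6%. The median best r was 0.754, against 0.823 over all. The choice of the 50 left out probes that correlate with LSS_UF_10838, and its part in this difference was not tested. The absolute r of the 50 probes with LSS_UF_10838 had a median of 0.18 and reached 0.593, and 7 of the 50 lay between 0.5 and the limit of 0.6. LSS_UF_14333, with an r of 0.593, had 68 partners at 0.8 or more.

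Sites were compared with limma on all 11040 probes, with 18 residual degrees of freedom and Benjamini-Hochberg adjustment over all of them. The site labels had no part in the choice of the 50 probes. Between Longview and Skamania, 2.84% of all probes were called at an adjusted p under 0.05, and 1 of the 50 on-off probes was, LSS_UF_24050. At an unadjusted p under 0.05 there were 5 of the 50 (10%), against 13.8% of all probes. The median log2 difference of the 50 was 0.34, with 30 higher and 20 lower at Longview, against a median of 0.11 over all probes. The standard errors of the 50 were larger, with a median of 1.43 against 0.315, since a probe that splits the fish within sites has a large spread within sites. A site difference in such a probe must be several log2 units to be called, and smaller ones were not detectable with these numbers of fish.

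LSS_UF_24050 had a level of -0.20 ± 5.69 at Longview (SD, n = 7), 6.26 ± 0.81 at Columbia City (SD, n = 6) and 6.33 ± 1.87 at Skamania (SD, n = 8). Longview was lower than Skamania by limma, with a log2 difference of -6.53, an SE of 1.68 and an adjusted p of 0.0350. The fit used 1 spread shared by all sites, whereas the SD of this probe was far larger at Longview than elsewhere. The SE and p depend on that sharing, and a fit with separate spreads was not run. The call rests on the 4 low Longview fish, since the other 3 Longview fish, at 3.56 to 7.62, overlapped the other sites. Within slide 1, whose fit held only 1 Columbia City fish, the difference was -0.16, and no p-value is given for it. Within slides 2 and 3 it was -8.96 and -9.94 and was not called (limma adjusted p = 0.356 and 0.417). It was no longer called without any one of Longview 3, 4, 6 and 7 and Skamania 1, 2, 3, 4, 5, 7 and 8, with differences of -6.57 to -5.65 and limma adjusted p-values of 0.0567 to 0.0946. It was also lost after normexp background correction (-5.56, limma adjusted p = 0.0885), and when only probes detected on 11 or more arrays were tested (limma adjusted p = 0.108). Calls over all probes fell with normexp and with 11 or more arrays too, to 13 of 11040 and 19 of 9894, against 313 of 11040 in the main fit. Without Longview 3, 4, 6 or 7 they were 270, 271, 211 and 280 of 11040. In slides 2 and 3 taken alone they were 0 of 11040. For slide 1 no count is given either, for the same reason. The Longview against Skamania call was kept with quantile normalization, median centring, no scaling, flagged spots kept, the authors' deposited values and no filter on dim probes. Its limma adjusted p was then 0.0281 to 0.0406. With slide as a fixed or a random block it was kept too (limma adjusted p = 0.0199 and 0.0467), with 307 and 300 of 11040 probes called. Against Columbia City the Longview difference was -6.46 and did not pass (limma adjusted p = 0.171).

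Of the 4 other probes with an unadjusted p under 0.05 between Longview and Skamania, LSS_UF_10581 had a level of 2.14 ± 3.42 at Longview (SD, n = 7), -0.32 ± 3.00 at Columbia City (SD, n = 6) and -1.88 ± 2.55 at Skamania (SD, n = 8). Its difference of 4.02 with an SE of 1.43 did not pass (limma adjusted p = 0.164). The differences of LSS_UF_11459 (-5.49), LSS_UF_21033 (-2.82) and LSS_UF_13347 (-2.88) did not pass either (limma adjusted p = 0.159, 0.189 and 0.358).

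Between Columbia City and Skamania limma called 0% of all probes and none of the 50, with 2 of the 50 (4%) and 9.26% of all probes at an unadjusted p under 0.05. Those 2 were LSS_UF_13948 (3.23) and LSS_UF_24449 (2.78), with limma adjusted p-values of 0.539 and 0.472. Between Longview and Columbia City it again called 0% of all probes and none of the 50, with 3 of the 50 (6%) and 9.89% of all probes at an unadjusted p under 0.05. These were LSS_UF_24050, LSS_UF_10918 (3.24) and LSS_UF_13948 (-3.73), the last 2 with a limma adjusted p of 0.440. The comparisons share fish of a site and are not independent of each other. The limma F test over the 3 sites called 1.76% of all probes and none of the 50, of which 4 (8%) had an unadjusted p under 0.05, against 13.3% of all. The smallest adjusted p among the 50 was 0.0592, for LSS_UF_24050.

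A limma F test over the 3 slides called 0.199% of all probes and none of the 50. At an unadjusted p under 0.05 there were 4 of the 50 (8%), against 6.08% of all probes, and the smallest adjusted p among the 50 was 0.224, for LSS_UF_10869. LSS_UF_24050 was one of the 4, with an unadjusted p of 0.0165 and an adjusted p of 0.609 in this F test. Its low fish, Longview 3, 4, 6 and 7, were on slides 2 and 3. Longview 1 and 5, on slide 1, were high, as was Longview 2 on slide 2.

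The limit of 50 fell within a continuous range of gaps. The last probes inside were LSS_UF_21660 with a gap of 1.953, LSS_UF_12217 with 1.943 and LSS_UF_20930 with 1.935. The first outside were LSS_UF_21968 with 1.935, LSS_UF_21723 with 1.931 and LSS_UF_11749 with 1.926, so the edge between member and non-member is narrow. Had probes that follow LSS_UF_10838 been admitted, 22 of the 50 would have been replaced.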

How the data were processed

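Liver RNA of 21 fish was labelled with Cy3 and hybridised to 1-colour Agilent arrays, 1 array per fish, per the labels' protocols. The submitters' processing notes name Agilent Feature Extraction 9.1 and the file headers version 10.1.1.1. Spot brightness was deposited as linear intensity, of which the processed signal gave the main values. The authors also deposited normalized log2 values for every array, used as an alternative.

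Here log2 processed signals were averaged per probe, leaving out 555 flagged values of 319368, and the 75th percentile of each array was subtracted. All 50 on-off probes were printed once, so spot noise was not measured, and 1 array per fish limits the precision. Of the 11040 probes tested, the 84 without a value on some array were left out of the gap rule. Tests of site and slide used limma 3.58.1 (R 4.3.3), two-sided for the differences between sites. Of these tests only the Longview against Skamania difference was tried on simulated data. Alternatives covered background correction, scaling, filters on dim probes, the limits of the gap rule, slide and replicate blocks, single slides and leaving out each fish. Normexp used median spot signals.

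The 50 probes, their lists and the tests were chosen with earlier results of these data known. Probes given in full are the 10 with the largest gaps, those sharing one set of low fish, those called in a site or slide test, the 3 on each side of the limit, and the one with the highest median level. The others are named for completeness, and any given with more values was chosen after its values were seen. Cell type markers were not used, since the files give no gene names.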

Additional observations from a re-analysis of the deposited data

Results flagged for a closer look

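Within each site, the highest or lowest fish of a probe was set against the others by Dixon's criterion. It stood apart in 35 of the 150 combinations of probe and site (23.3%), in 28 of the 50 probes. Chance gives about 1 in 20, but these probes were chosen for a gap in their values, so that share does not apply to them. In 23 cases the lowest fish stood apart and in 12 the highest. Skamania 7 was involved in 5, more than any other fish, but LSS_UF_10575, LSS_UF_24351 and LSS_UF_10834 among them are correlated with each other (r between 0.950 and 0.968). Values are levels as in the report.

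At Longview the low fish that stood apart were Longview 2 for LSS_UF_17787 (-6.71), Longview 5 for LSS_UF_10864 (-7.27), and Longview 6 for LSS_UF_18127 (-6.42), LSS_UF_24103 (-5.61) and LSS_UF_14333 (-3.70). Longview 1 did so for LSS_UF_10952 (-4.33) and LSS_UF_16942 (-4.28). The high fish were Longview 5 for LSS_UF_13347 (1.20), Longview 2 for LSS_UF_11459 (2.5) and Longview 4 for LSS_UF_12217 (-2.29).

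At Columbia City the low fish were Columbia City 5 for LSS_UF_17787 (-6.16) and LSS_UF_21660 (-1.31), Columbia City 1 for LSS_UF_23547 (-6.48) and LSS_UF_24675 (-6.08), and Columbia City 2 for LSS_UF_10952 (-4.08) and LSS_UF_23597 (-0.61). Columbia City 6 was low for LSS_UF_24058 (-6.44), and Columbia City 3 for LSS_UF_15187 (-5.55) and LSS_UF_11744 (-2.78). The high fish were Columbia City 2 for LSS_UF_15696 (2.76), Columbia City 4 for LSS_UF_18014 (1.63), Columbia City 6 for LSS_UF_10521 (3.64) and Columbia City 5 for LSS_UF_12217 (-1.96).

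At Skamania the low fish were Skamania 7 for LSS_UF_17787 (-6.74) and LSS_UF_16942 (-6.79), Skamania 4 for LSS_UF_10918 (-7.46), Skamania 2 for LSS_UF_21033 (-5.70), and Skamania 6 for LSS_UF_14333 (-2.87), LSS_UF_13701 (-7.46) and LSS_UF_24050 (1.90). The high fish were Skamania 7 for LSS_UF_10575 (4.64), LSS_UF_24351 (4.92) and LSS_UF_10834 (3.70), Skamania 3 for LSS_UF_10581 (3.95) and Skamania 5 for LSS_UF_12217 (-1.34). Skamania 6 for LSS_UF_24050 is the one case in which the fish that stood lowest lay above the probe's largest gap.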

How the results depend on the processing

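The split into high and low fish kept a gap above 0 for all 50 probes under quantile normalization, median centring, no scaling, flagged spots kept, normexp and the authors' deposited log2 values. The 50 were chosen for gaps of at least 1.935 in signals of the same spots, so a gap above 0 was largely set by that choice. With normexp, however, the gap moved by more than the pooled SD within the high and low fish in 28 of the 50. The median gap was then 1.427, against 2.597 in the main values, and the smallest was 0.271, for LSS_UF_13701. Choosing 50 probes anew gave 30 of the same with normexp, 33 with at least 2 fish on each side and 28 without the limit on r. Only 10 of the 50 were well above background on all 21 arrays and 42 on at least 11. Choosing among such probes gave these 10 and 42 again, an outcome fixed in advance. The 43 kept under a limit on r of 0.5 were fixed in the same way. Other settings gave 37 to 49, and leaving out 1 fish 40 to 49. Between Longview and Skamania, where the main fit called 313 of 11040 probes, calls over all probes were fewer in several settings. With normexp 13 of 11040 were called, with at least 11 arrays 19 of 9894 and with all 21 arrays 1 of 7072. None of the on-off probes was among them, with 50, 42 and 10 of them tested. In slides 2 and 3 taken alone, 0 of 11040 probes were called. For slide 1, whose fit held only 1 Columbia City fish, no count is given for this comparison. With a replicate block 258 of 11040 were called and none of the 50. Leaving out 1 fish, 0 to 1 of the 50 was called. Without Longview 3, 4, 6 or 7 it was 0 of the 50, with 270, 271, 211 and 280 of 11040 probes called. The site F test called 1, LSS_UF_24050, with slide as a fixed block (limma adjusted p = 0.0226), where 180 of 11040 probes were called. Leaving out 1 fish it called 0 to 1, with 1 without Longview 1, Longview 5 or Skamania 6. Without Longview 1 and without Longview 5 it called 128 and 181 of 11040 probes. Within slide 1 the counts of the 50 were 1 for Columbia City against Skamania and 1 for Longview against Columbia City, of 4 and 2 called among 11017 probes. Both are LSS_UF_17787, and the only Columbia City fish on that slide is one of the 3 low fish that define its gap, so these counts test nothing. The other comparisons called 0 leaving out any fish. Same-numbered fish of different sites were not paired in the main fit. Their deviations from site means had a median r of -0.132, against -0.003 for differently numbered fish of different sites. The r of the 19 same-numbered pairs ranged from -0.461 to 0.403, with 7 above 0.1. Of 20 arrays, 3 were closest to an array of their own number. In the fit with a replicate block LSS_UF_24050 had a difference of -6.40, an SE of 1.65 and a limma adjusted p of 0.0652. The cause of these differences between settings was not tested. Dim signals limit the low state, whose depth was not measured in 17 probes.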
